A study of Mus musculus with 54 samples.

Results

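Cytosolic ribosomal protein genes were examined as targets of KRAB zinc finger proteins (KZFPs). The group was chosen by gene symbol from the GENCODE annotation of the mouse genome GRCm39. It took protein-coding genes whose symbol starts with Rpl or Rps and a digit, Rplp or Rpsa. Of 105 matching symbols, 10 Rps6k kinases and 4 pseudogene symbols were left out, which gave 91 genes of 21757 protein-coding genes on the chromosomes. By symbol, 55 belong to the large subunit and 36 to the small subunit, 9 are paralogs or Rps19bp1, 5 are retrogenes, and 77 are neither. The rule itself uses the symbols only and no measured value.

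The data are ChIP-seq peak lists of 42 KZFPs encoded in the Chr4 cluster of BL6J mice. Each was over-expressed from an HA-tagged construct in the mouse embryonal carcinoma line F9 and precipitated through the tag. There was 1 library per KZFP and no replicate, in 5 batches of 3, 3, 13, 20 and 3 lists, so no value below has a replicate error and differences were not tested. Each list compares its library with the mixed input of its batch, and peaks found in any of 4 empty vector controls had been removed by the authors. The lists hold no read counts, so the depth behind a peak cannot be given from them. The study states the reads of each library, which were not used here, and by these Zfp_MB003 is among the shallowest libraries. The lists held 25012 peaks, of which 24975 lay on chromosomes and 37 on scaffolds.

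Ribosomal proteins form the small subunit, which reads the mRNA, and the large subunit, which joins amino acids and releases the chain through its exit tunnel. Their genes are transcribed at high levels in growing cells and many of their mRNAs begin with a run of pyrimidines (the TOP motif) through which translation of the whole set is regulated. Many processed pseudogenes derive from these mRNAs. KZFPs are DNA binding repressors best known for recognition of transposable elements.

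A peak was assigned to a promoter when its summit lay within 1000 bp of a transcription start of a gene. By this rule 5036 peaks (20.2% of those on chromosomes) were promoter peaks. Pyrimidine runs near the start were more frequent in the ribosomal protein genes than in all genes. Sequences at the starts of 4 ribosomal protein genes with a promoter peak are therefore given first. They were picked for a run of 8 bases or more, which 5 of the 20 genes with a promoter peak had. They cover 30 bases of GRCm39 on the strand of the gene, from 10 bases before to 19 bases after the canonical start, with the longest pyrimidine run in capitals. The positions are chr8:123829062-123829091 (plus strand) for Rpl13, chr16:32876635-32876664 (plus) for Rpl35a, chr12:69231215-69231244 (minus) for Rpl36al and chr15:76788261-76788290 (plus) for Rpl8.
Rpl13: gcgtgacgtcaCTTCCCTTTCgcctgattt
Rpl35a: acgattttgCCTTTCCTTgttcctaaataa
Rpl36al: cccgggctccgcgcaTCCTCTCTggcagtt
Rpl8: aggctgcgttgacccgtctaTTTCCTCTTT
In these windows a pyrimidine run of 8 bases or more occurred at 20.9% of the 91 ribosomal protein genes and at 11.8% of all protein-coding genes. The word CTTTCC was searched on the gene strand in a wider window. It ran from 50 bases before the canonical start through the 50 bases that begin at it. The word occurred at 17.6% of ribosomal protein genes and 4.44% of all genes. The 10 ribosomal protein genes with a Zfp_MB003 peak held CTTTCC in 2 cases and a long run in 3, and the 71 genes with no peak held them in 14 and 14 cases. The annotated canonical start need not be the base at which most transcripts begin. A missing run thus says only that it is not in the window of 30 bases. A counted run may lie anywhere in that window, at Rpl8 at its end, and was not checked against the TOP motif.

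Of the 91 ribosomal protein genes, 20 had a promoter peak of some KZFP. This was 22.0% (95% exact binomial interval 14 to 31.9%), beside 20.3% of all protein-coding genes. The 20 genes comprised 12 of the large subunit and 8 of the small subunit. Their 20 peaks were 0.397% (0.243 to 0.613%) of all promoter peaks, while ribosomal protein genes are 0.418% of protein-coding genes. The share of the whole group was near the background, but its place beside the background depended on which lists were included. Without Zfp_MB003, 10 of 91 genes (11%) had a promoter peak, beside 19.5% of all genes, and without Zfp982, 16 of 91 (17.6%), beside 11.5%. When all peaks with a fold over input under 10 were left out it was also 11%, beside 19.1%. Ribosomal protein genes have a median of 9 annotated starts and protein-coding genes a median of 5. With the start of the gene as the only start, the share was 18.7% of ribosomal protein genes and 15.7% of all genes. The other 71 genes, Rpsa, Rps6, Rpl5, Rplp1 and Rplp2 among them, had no promoter peak in any list. Intervals here cover counting error only.

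No ribosomal protein gene had promoter peaks of 2 or more KZFPs. A count of 0 of 91 allows a share of up to 3.30% by the limit of 3 counts and up to 3.97% by the 95% exact binomial interval, and 3.75% of all protein-coding genes had such peaks (3.68% with KZFPs of the same zinc finger array counted once). The exact interval covers that background. Exactly 1 KZFP was found at 20 of the 91 genes and at 16.6% of all genes. None of the 20 peaks overlapped a peak of another list anywhere along its length. Among the other promoter peaks of the same lists, a peak of another list overlapped 43.2% (102 of 236) for Zfp_MB003, 63.3% (50 of 79) for Zfp_MB035, 29.5% (308 of 1043) for Zfp_MB016, 18.5% (424 of 2298) for Zfp982 and 18.2% (73 of 401) for Zfp_MB026. The difference was not tested.

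The 20 peaks came from 5 KZFPs. Zfp_MB003 had peaks at 10 ribosomal protein genes, Zfp982 at 4, Zfp_MB016 at 3, Zfp_MB026 at 2 and Zfp_MB035 at 1. The other 37 lists, with 959 promoter peaks between them, had none. Ribosomal protein genes are 0.418% of protein-coding genes, so at that share few of the 959 would be at them. By batch the ribosomal protein peaks numbered 4, 0, 10, 5 and 1, and the promoter peaks 2303, 24, 679, 1925 and 105.

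**Figure D1:**
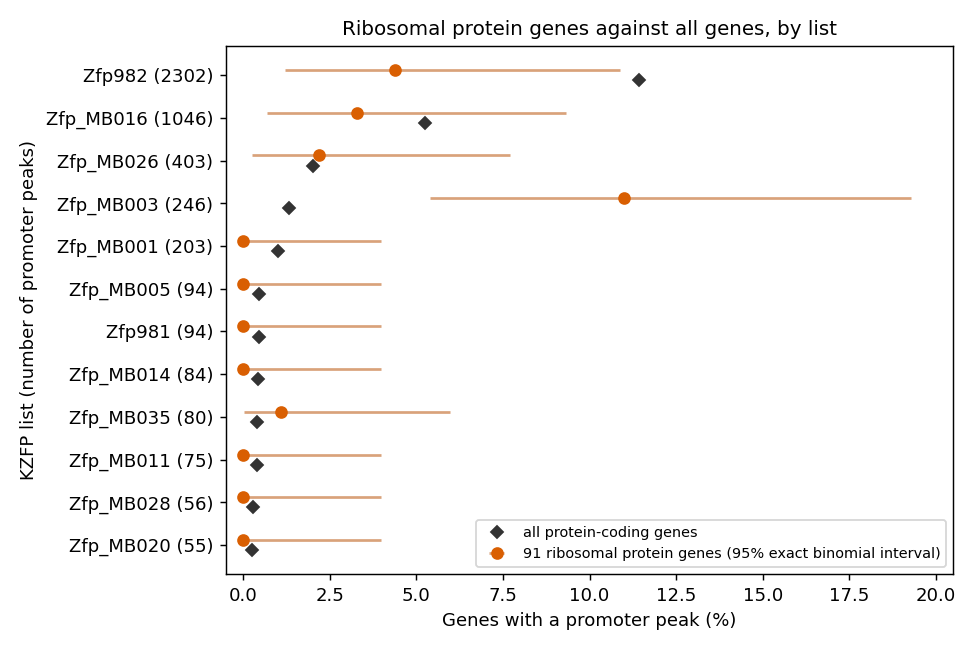
Percent of genes with a promoter peak (x axis) in each list of 50 or more promoter peaks (y axis, number of promoter peaks in parentheses), for the 91 ribosomal protein genes (circles, bars are 95% exact binomial intervals) and all protein-coding genes (diamonds). For Zfp_MB003 the interval of 5.40 to 19.3% lies above the 1.34% of all genes, for Zfp982 the interval of 1.21 to 10.9% lies below 11.4%, and in the other lists the interval covers the value of all genes.

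Zfp_MB003 had peaks at more ribosomal protein genes than any other of the 42 lists. It had a promoter peak at 10 of 91 ribosomal protein genes (11%, 5.40 to 19.3%) and at 1.34% of all protein-coding genes, and 4.07% (1.97 to 7.35%) of its promoter peaks were at ribosomal protein genes. Of its 360 peaks, 246 were at promoters (68.3%), beside 20.2% over all lists. In 3 of the 10 genes the product is a small subunit protein (Rps3, Rps16, Rps23), and in 7 a large subunit protein or paralog (Rpl7l1, Rpl13, Rpl21, Rpl31, Rpl35a and Rpl36al among them). None of the 10 had a peak of another KZFP at its promoter.

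These Zfp_MB003 peaks were weak. Their fold enrichment over input ran from 5.10 to 6.52. The authors' fold minimum was 10 for most lists and 5 for 10 lists in which few peaks reached it, this one among them, where 11 of 360 peaks had a fold of 10 or more. None of those 11 was a promoter peak: the highest promoter fold in the list was 8.20, while the highest fold of any peak was 45.5. At a minimum of 10 in every list, Zfp_MB003 had 0 ribosomal protein genes. The 9 other lists with the minimum of 5 held 228 promoter peaks and 0 at a ribosomal protein gene. These genes are 0.418% of protein-coding genes, so 0 of 228 is near that share. The list belongs to batch 3, which had no empty vector control of its own. The part that the fold minimum and the control take in the result was not tested.

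The strongest of them was at Rps23, whose protein lines the decoding centre. Its fold was 6.52, rank 51 of 360 in the list and 23 of 246 among its promoter peaks, with the summit at chromosome 13 position 91071301 in an exon, 35 bp upstream of a start. Rps3, a protein at the mRNA entry channel, had a fold of 6.36 (rank 59) with the summit at chromosome 7 position 99132699, in an intron 142 bp downstream of a start. Rpl31, a protein near the exit tunnel, had a fold of 5.59 (rank 161) with the summit at chromosome 1 position 39407003, 1 bp from a start. Rpl7l1, a paralog of Rpl7, had a fold of 5.52 (rank 175) with the summit at chromosome 17 position 47093713, 107 bp upstream of its start. Rpl13, Rpl21, Rpl35a, Rpl36al and Rps16 had folds from 5.10 to 5.18 and ranks from 273 to 329, in the lower part of the list.

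The summits of Zfp_MB003 lay close to starts. All 10 lay within 150 bp of the nearest start, at a median distance of 42.5 bp, and 0.938% of all protein-coding genes had a Zfp_MB003 summit that close. Among its other promoter peaks 73.3% lay within 150 bp, at a median of 60 bp, so closeness to the start was shared by most promoter peaks of this list. Relative to the canonical start, 8 of the 10 summits lay downstream, with a range from 107 bp upstream to 487 bp downstream. At Rpl35a a start of Iqcg lay 333 bp from the summit and at Rpl36al a start of Mgat2 lay 294 bp away, both farther than the ribosomal protein start.

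**Figure D2:**
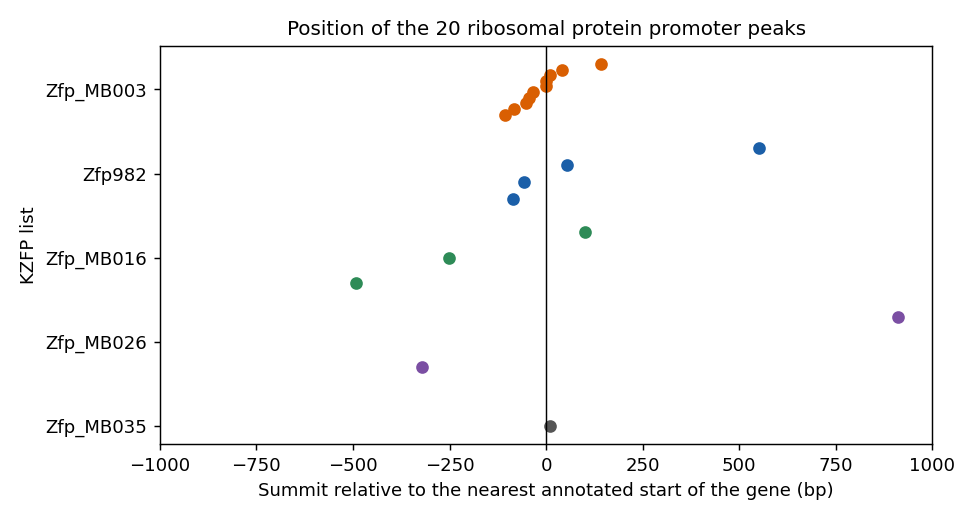
Distance in bp (x axis) from the nearest annotated start of the gene to the summit of each of the 20 promoter peaks (points, negative is upstream), by KZFP list (y axis, points of a list are spread vertically). The 10 summits of Zfp_MB003 lie within 150 bp of a start, and those of Rpl3 (551 bp, Zfp982) and Rpl11 (910 bp, Zfp_MB026) lie farthest downstream.

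Zfp_MB011, which shares its zinc finger array with Zfp_MB003 in the study's grouping, had no ribosomal protein peak. The 95% exact interval of 0 of 91 reaches 3.97%, and it had a peak at 0.391% of all protein-coding genes. It had 75 promoter peaks of 296 (25.3%), and it came from the same batch with the same fold minimum. By the reads the study states, its library was much deeper than that of Zfp_MB003. A Zfp_MB011 peak overlapped 21 of the 246 promoter peaks of Zfp_MB003, and none of those 21 was at a ribosomal protein gene. Of all 246, 4.07% were at one, so 0 of 21 says little. A peak of Zfp982, a far longer list (4746 peaks beside 296 of Zfp_MB011), overlapped 56 of the 246.

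Zfp982, with 2302 promoter peaks of 4746 (48.5%), had the most promoter peaks of any list and 4 at ribosomal protein genes. This was 4.4% (1.21 to 10.9%) of the 91 genes, beside 11.4% of all protein-coding genes. The interval ends just below the background, in 1 library among 42 lists, and the difference was not tested. Rpl8, a protein near the peptidyl transferase centre, had the highest fold (18.4, rank 1938 of 4746), with the summit at chromosome 15 position 76788185, 86 bp upstream of its start. Rps10 had a fold of 13.2 with the summit at chromosome 17 position 27854148, 55 bp from a start and 48 bp from a start of Gm49804. Rpl3, which reaches into the peptidyl transferase centre, had a fold of 13 at chromosome 15 position 79975518. That summit was in an intron 551 bp from a Rpl3 start but 9 bp from a start of Syngr1, and 7911 bp upstream of the canonical Rpl3 start. When each summit was counted only for the gene with the nearest start, Rps10 and Rpl3 dropped out.

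Zfp_MB016 had 3 ribosomal protein genes (3.30%, 0.685 to 9.33%) beside 5.25% of all protein-coding genes. Rpl17, a protein at the exit tunnel, had a fold of 25.5 (rank 1602 of 6183), with the summit in an exon at chromosome 18 position 75133916. Rplp0, which anchors the P stalk that recruits translation factors, had a fold of 15.6 with the summit at chromosome 5 position 115694264. It lay 251 bp upstream of an alternative start and 3262 bp upstream of the canonical one. Rps13 had a fold of 12.1, 492 bp upstream of its start. These summits lay farther from starts (median 251 bp) than the other promoter peaks of the list (median 137 bp).

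Zfp_MB026 had peaks at 2 ribosomal protein genes (2.2%, 0.267 to 7.71%), beside 2.01% of all protein-coding genes. Rpl11, a protein of the 5S ribonucleoprotein that binds Mdm2, had a fold of 24.7 (rank 1178 of 4106) with the summit in an intron at chromosome 4 position 135779086. At 910 bp from a start and 1732 bp from the canonical start it was the peak nearest to the limit of the window.

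Zfp_MB035 had a peak at 1 ribosomal protein gene (1.10%, 0.0278 to 5.97%), beside 0.395% of all protein-coding genes. It was at Rps20, with a fold of 10.6 (rank 402 of 459), 11 bp from a start. The peak spanned 2480 bp, the widest of the 20.

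Of the lists without a ribosomal protein peak, Zfp_MB001 had the most promoter peaks (203), at 1.01% of all genes. Zfp981 and Zfp_MB005 had 94 each, at 0.45% and 0.464% of all genes. Zfp_MB014 had 84, at 0.427%. Each of these backgrounds is below the 3.97% reached by the 95% exact interval of 0 of 91, so a lower share at ribosomal protein genes was not detectable in these lists. Zfp_MB025, with a promoter share (66.1%, 37 of 56 peaks) near that of Zfp_MB003, had none either and was at 0.198% of all genes.

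In 4 of the 5 lists the median fold of ribosomal protein promoter peaks was below that of the other promoter peaks. The median fold was 5.19 against 5.51 for Zfp_MB003, a log2 difference of -0.08. It was 13.1 against 15.2 for Zfp982 (-0.21) and 15.6 against 15.9 for Zfp_MB016 (-0.02). For the single peak of Zfp_MB035 it was 10.6 against 12.8 (-0.27). For Zfp_MB026, the list with the higher median, the Rpl11 peak (24.7) lay above the median of the other promoter peaks (16.6). Folds are relative to the input of a batch and were not compared between lists.

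**Figure D3:**
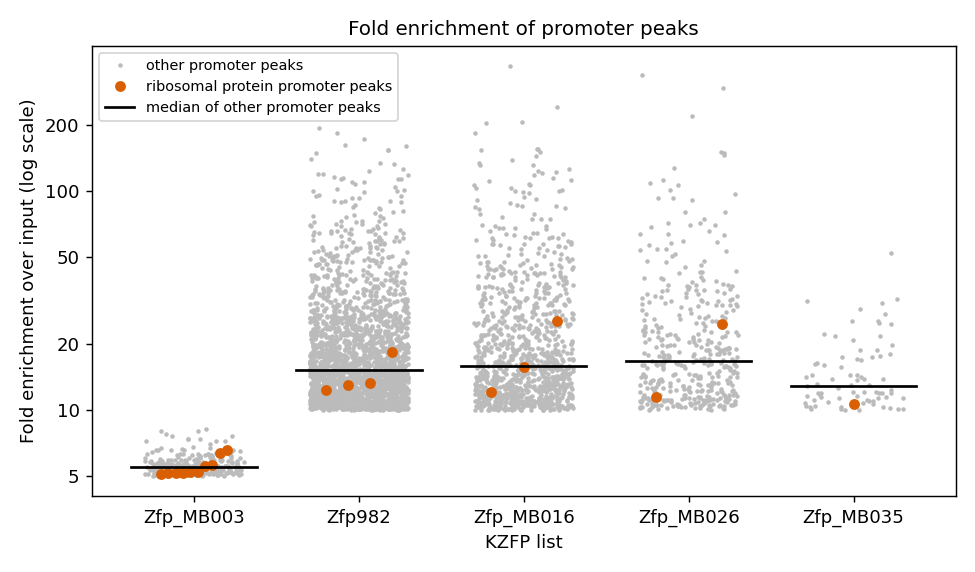
Fold enrichment over input (y axis, log scale) of ribosomal protein promoter peaks (large points) and other promoter peaks (small grey points, spread sideways at random) in the 5 lists with a ribosomal protein peak (x axis). Lines are medians of the other promoter peaks, and every Zfp_MB003 promoter peak lies at or below 8.20.

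None of the 20 windows of 200 bp around a ribosomal protein summit held the motif of its own KZFP, in full or with 1 mismatch. The motifs are those the study derived from these lists. The motif was rare at other promoter peaks too and more frequent away from promoters, where most windows still lacked it. For Zfp982, whose motif is AGACCCTCTGG, 0.435% of other promoter windows and 39.95% of windows away from promoters held it. The shares were 1.15% and 47% for Zfp_MB016, and 0.424% and 7.89% for Zfp_MB003. For Zfp_MB026, whose motif is ATATGGAATGGAGAG, they were 0% (0 of 401) and 26.5%, and for Zfp_MB035 they were 1.27% and 21.3%. All motifs were searched on both strands. In windows of the same length around the canonical starts of all 21757 genes, the Zfp982 motif occurred in 3 (0.0138%) and the other 4 motifs in none.

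**Figure D4:**
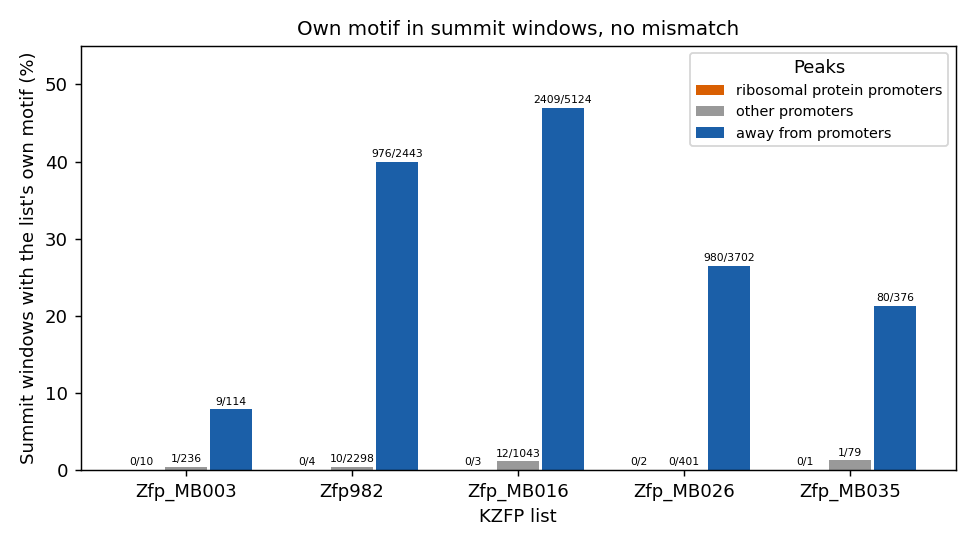
Percent of 200 bp summit windows with the list's own motif without mismatch (y axis) for the 5 lists (x axis), at ribosomal protein promoters, other promoters and away from promoters. Numbers above bars are windows with the motif over all windows, and the ribosomal protein windows held 0 of 10, 0 of 4, 0 of 3, 0 of 2 and 0 of 1.

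The stretches closest to the motif show how far the summit sequences were from it. They are shown for the highest peak of Zfp982 and the highest 3 of Zfp_MB003 as 30 bases on the strand of the gene, with the stretch aligned to the motif in capitals. They lie at chr15:76788162-76788191 (plus) for Rpl8, chr13:91071280-91071309 (plus) for Rps23, chr7:99132691-99132720 (minus) for Rps3 and chr1:39406996-39407025 (plus) for Rpl31.
Rpl8: gcaatttggtAGACACACAGGacacctgca
Rps23: ctctctctTTCTCTTGGGCCCGTggcgccg
Rps3: ctgtggaGCGTCTGGGGCCGCCtgccgtct
Rpl31: tcctacttGGGCCCGGCAGAGTGagtatgg
The Rpl8 stretch differed from the Zfp982 motif at 3 of 11 bases. Those of Rps23, Rps3 and Rpl31 differed from the Zfp_MB003 motif at 4, 5 and 5 of 15 bases. The median over other promoter windows was 3 mismatches for Zfp982 and 5 for Zfp_MB003. For these lists the ribosomal protein windows shown were thus about as far from the motif as other promoters. Away from promoters the median was 2 for Zfp982 and also 5 for Zfp_MB003.

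In 4 of the 5 lists the summit windows at ribosomal protein promoters had a higher median GC content than those away from promoters. Median GC was 66.8% at the Zfp_MB003 ribosomal protein peaks, 68% at its other promoter peaks and 54.5% away from promoters. It was 70.5%, 73.2% and 51% for Zfp982, and 56%, 63% and 51.5% for Zfp_MB016. The 2 Zfp_MB026 windows had a median of 48.2%, beside 52% and 50%. The Zfp_MB035 window at Rps20 had 74.5%, beside 74% and 48.5%.

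Known promoter words were searched from 250 bases before the canonical start through the 50 bases that begin at it, on both strands. CCGGAAG, which holds an ETS core, occurred at 28.6% of ribosomal protein genes and 10.3% of all genes. GGGCGG, a GC box, occurred at 49.5% and 42.5%, TATAAA at 14.3% and 13.2%, and AAGATGG, a YY1 word, at 6.59% and 5.74%. Among the 10 genes with a Zfp_MB003 peak, CCGGAAG occurred in 1, GGGCGG in 7, TATAAA in 0 and AAGATGG in 1. GGGCGG was also present at 8 of the 10 ribosomal protein genes with a peak of another KZFP, at 67.3% of the other genes with a Zfp_MB003 promoter peak, and at 30 of the 71 ribosomal protein genes without a peak (42.3%).

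Ribosomal protein genes have many sequence copies, and 1 of several equally good alignments was kept at random, so copies of the summit windows were counted. A copy of at least 100 bp and 80% identity elsewhere in the genome was found for 2 of the 20 windows, those of Rpl7l1 (202 bp at 86.6% identity) and Rps16 (2 copies, the longest 137 bp at 89.1%). The other 18 windows had no such copy. Of 322 annotated Rpl and Rps pseudogenes, 5 (1.55%) had a summit within 1000 bp of a start. They had 6 peaks in all, and in 3 of these the summit lay upstream. The share over all annotated pseudogenes was not computed, so the 1.55% has no background beside it.

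Some peaks lay near ribosomal protein genes but outside the window. The nearest outside was a Zfp982 peak 1354 bp from a start of Rpl41 with a fold of 29.7. It was followed by a Zfp_MB026 peak 1703 bp from a start of Rpl27 (fold 11.4). In all 16 further pairs of a gene and a KZFP lay between the window and 5000 bp. Inside genes but away from promoters there were 5 peaks, some of them among these pairs, at Rps15a (Zfp_MB026, fold 79.9), Rpl37a (Zfp_MB028, 30.2), Rps3 (Zfp_MB016, 29.6), Rps9 (Zfp_MB026, 14.6) and Rpl5 (Zfp_MB016, 11.9). None of these came from Zfp_MB003, whose ribosomal protein peaks were all at promoters.

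Other genes of the translation machinery were counted in the same way. Fau, which encodes a ribosomal protein fused to a ubiquitin-like protein and so falls outside the symbol rule, had a promoter peak of Zfp_MB003 (fold 6.01, shared with the start of Mrpl49). A list of 37 genes held translation factors and other genes, some with TOP mRNAs. Which of the 37 begin with a TOP motif was not checked. Of the 37 genes, 16 (43.2%, 27.1 to 60.5%) had a promoter peak of some list, beside 20.3% of all protein-coding genes. Zfp982 was at 10 of them (27%, 13.8 to 44.1%), beside 11.4% of all genes, and Zfp_MB003 at 5 (13.5%, 4.54 to 28.8%), beside 1.34%. The 5 were the elongation factor gene Eef1a1 (fold 5.35), the initiation factor genes Eif2s2 (5.63), Eif3e (5.63) and Eif4a2 (5.25), and Tpt1 (7.73), which encodes a translationally controlled protein.

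In that list several promoters were shared between KZFPs. Eef1a1 had promoter peaks of 6 lists and Tpt1 of 4, while no ribosomal protein gene had peaks of more than 1. Among 78 mitochondrial ribosomal protein genes, 15 (19.2%) had a promoter peak, 3 of them (3.85%, 0.800 to 10.8%) of Zfp_MB003 (Mrpl40, Mrpl49 and Mrps6). Among 32 ribosome biogenesis genes 9 (28.1%) had one, with 1 (Nop14) of Zfp_MB003. Among 40 proteasome genes 7 (17.5%) had one, with 0 of Zfp_MB003 (95% exact interval up to 8.81%). Intervals of these lists overlap that of the cytosolic ribosomal proteins for Zfp_MB003.

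**Figure D5:**
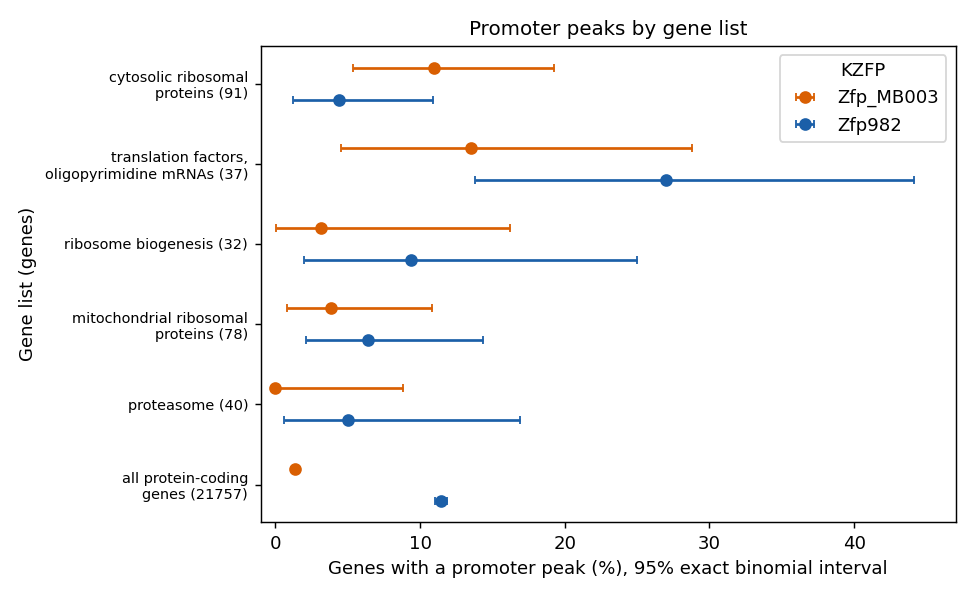
Percent of genes with a promoter peak of Zfp_MB003 or Zfp982 (x axis, bars are 95% exact binomial intervals) in each gene list (y axis, number of genes in parentheses). Zfp_MB003 is at 11% of cytosolic ribosomal protein genes and 13.5% of the translation factor list beside 1.34% of all genes, and Zfp982 is at 4.4% and 27% beside 11.4%.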

How the data were processed

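The lists were made from 42 of the 54 samples in the labels. The other 12 (4 empty vector controls, 5 mixed inputs and 3 libraries of HGTC8 cells) were not analysed here. Reads were mapped by the authors with BWA on GRCm39, and a read with several equally good places was given 1 of them at random. Peaks were called by them in each library with MACS2 2.2.7.1 against the mixed input of the batch, after filtering with SAMtools 1.19, and peaks overlapping any empty vector peak were removed. The deposited fold enrichment is a ratio over that input. The authors' -log10 p and -log10 q and the deposited display score come from MACS2. Only the fold and the -log10 q were used here, for ranks and thresholds.

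Chromosome accessions were translated to numbers and checked with motifs: 20.8% of 4745 Zfp982 windows held its motif as translated and 0% when rotated by 1 chromosome. Starts of all GENCODE transcripts were used. Peaks were assigned with Python 3.11.15, NumPy 2.4.6 and SciPy 1.17.1, copies were found with blastn 2.17.0, and the assignment was tested on simulated data. No test was run, because each KZFP has 1 library. The rule for named genes was those with peaks of 2 or more KZFPs and the 10 peaks of highest rank within their list, with others named or counted. A few genes of the group are not reported here by name. The members and lists were chosen with earlier results of these data known.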

Additional observations from a re-analysis of the deposited data

How the results depend on the processing

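No paired analysis was possible because each KZFP has 1 library and no result comes from a test. Of the values recomputed under other settings, 104 moved by less than the criterion (a factor of 1.5 for a count, the 95% interval for a share) and 20 by more. With a fold of at least 10 in every list, 11% of ribosomal protein genes had a promoter peak beside 19.1% of all genes, in 10 pairs of gene and KZFP, at 0.219% of promoter peaks, and 0 genes had a Zfp_MB003 peak. With a fold of at least 15 the values were 4.4% beside 10.9%, 4 pairs, 0.167% and 0 genes, from 3 KZFPs. Without batch 3 they were 11% beside 18.5%, 10 pairs and 0.230%, and without the Zfp_MB003 list, a setting chosen after seeing the data, 11% beside 19.5%, 10 pairs and 0.209%. The fold minimum of 10 and the removal of batch 3 or of the Zfp_MB003 list all take out the same 10 ribosomal protein peaks. They are thus not separate checks. The comparison went the other way without batch 1 and without the Zfp982 list (also chosen after seeing the data), with 17.6% of ribosomal protein genes beside 11.5% of all genes in both. Zfp982 holds 2302 of the 2303 promoter peaks of batch 1, so these settings are nearly the same. Without batch 4 there were 3 KZFPs. The median log2 fold difference over lists was -0.08, and it was -0.21 with a window of 2000 bp, with gene starts only and without batch 4, and -0.27 with a fold of at least 15. Promoter peaks of 2 or more arrays stayed at 0 genes in every setting run. The lists give no depth, and folds near the minimum limit what can be said of weak promoters.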
